A study of Homo sapiens with 3 samples.

Results

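The 4 arginine tRNA probes, named Arg1h, Arg2h, Arg3h and Arg4h on the arrays, were chosen by name out of 41 human tRNA probes. The arrays came from a study that set eIF3e-depleted cells against control cells. eIF3e is a subunit of the initiation factor eIF3, and the study's title links eIF3 to elongating ribosomes, mitochondria and muscle. The knockdown group held 2 cultures of MCF-10A cells, a non-tumorigenic human breast epithelial line, given siRNA against eIF3e, and the control group held 3 cultures of the same line given a control siRNA, each at 20 nM for 72 h. Each ratio set both RNAs against each other: Cy3 carried the knockdown RNA and Atto635 the control RNA, with no dyes swapped. Ratio 1 paired knockdown culture 1 with control culture 1, ratio 2 paired knockdown culture 1 with control culture 2, and ratio 3 paired knockdown culture 2 with control culture 3. The arrays held tRNA probes and no messenger RNA, so neither the depletion of eIF3e nor markers of the cell line could be checked on them.

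Arginine is read from the CGN codons and from AGA and AGG, and no single tRNA decodes all of them. Arginine tRNAs with the anticodons ACG (its first base modified to inosine), CCG and TCG read CGN codons, and those with TCT and CCT read AGA and AGG. Arginyl-tRNA synthetase charges them all with the same amino acid. In the RefSeq gene table (GRCh38.p14) there were 26 nuclear arginine tRNA genes with 5 anticodons, not counting 4 pseudogenes. ACG had 7 genes, TCT 6, TCG 5, and CCG and CCT 4 each. They lay on 10 chromosomes, with 11 of them on chromosome 6. Of the TCT genes, 5 of 6 were longer than 75 bases, up to 91, and the other anticodons' genes were all 73 bases long. Such longer arginine TCT genes are known to carry an intron that is spliced out of the tRNA. TRR-TCT3-2, for example, spans chr11:59551294-59551379. A separate mitochondrial arginine tRNA gene, TRNR, spans bases 10405 to 10469 of the mitochondrial genome. A probe's name holds its amino acid and a serial number but no anticodon. The sources used here do not pair Arg1h to Arg4h with anticodons, and probe sequences were not used here.

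Each arginine probe was printed as 16 spots, 4 in each of 4 pairs of blocks with the same layout. A total of 4 synthetic tRNA standards, 4 pmol each in 2 µg of total RNA, gave the scale, and each ratio was centred on their median. The ratio 2 table repeated 56 of the 57 columns of ratio 1, Cy3 values and spot flags included, and differed in the background-subtracted Atto635 intensity. The deposited values thus do not show that both channels of ratio 2 were read on 1 array. The labels' protocols describe an abundance and a charging procedure and place periodate oxidation, which destroys the 3′ end of uncharged tRNA, under abundance. The values are therefore read as abundance of ligatable tRNA, and if periodate was used they are levels of charged tRNA. Median intensities over human spots were 2236 to 2875 in the knockdown channel and 734 to 1605 in the control channel, and the number of arrays limits the precision.

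Arg3h had the highest knockdown-over-control ratio of the 4 arginine probes in all 3 ratios, and before dye subtraction Arg1h had the lowest. Arg3h was 1.34-fold higher in knockdown cells scaled on the standards and 1.33-fold higher with the dye control array subtracted, and it passed the test both ways. Arg1h passed the test as lower, at 0.726-fold, when scaled on the standards, and lay at 1.10-fold after dye subtraction. Arg2h and Arg4h passed neither way. Before dye subtraction their fitted log2 ratios were 0.27 and 0.24, near the median fitted value of the human probes, 0.21. After it they were 0.14 and 0.23, against a median fitted value of 0.088. A probe passed, here and below, when its limma p-value, adjusted over all 41 human probes by the Benjamini-Hochberg method, was under 0.05.

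In the knockdown channel Arg3h had a median spot intensity of 1833.5 on array 1 (473 to 2394 over 16 spots) and 1196 on array 3 (657 to 1746 over 13 unflagged spots). In the control channel it was 935.5 in ratio 1 (238 to 1252), 622 in ratio 2 (83 to 762) and 366 in ratio 3 (196 to 563). The knockdown signal was thus the higher one in every ratio, as it was for the standards. Their median log2 ratio before centring was 0.70 in ratio 1 and 1.19 in ratio 3. After centring, the log2 ratios of Arg3h were 0.23, 0.63 and 0.42 in ratios 1, 2 and 3, and 0.21, 0.62 and 0.40 with the dye control subtracted. All lay above 0 and above the median human probe, which was at 0.05, 0.26 and 0.28 before dye subtraction and at -0.09, 0.16 and 0.19 after it. Single standards did not all lie at 0 after centring. Before dye subtraction Yeast Phe-3 was at 0.31, 0.31 and 0.40 in ratios 1, 2 and 3. The other standards ran from -0.17 to 0.026. After dye subtraction E.c. Lys-2 was at 0.38, 0.34 and 0.34, and the others ran from -0.19 to 0.12. In both forms Arg3h thus lay below 1 standard in ratio 1 and above all 4 in ratios 2 and 3. The fitted log2 ratio of Arg3h was 0.42 (SE 0.13, 95% interval 0.16 to 0.69, limma adjusted p = 0.0167). With the dye control subtracted it was 0.41 (SE 0.13, 95% interval 0.15 to 0.67, limma adjusted p = 0.0380).

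That SE is common to all 41 probes, since limma pooled their variance fully. The limma intervals and p-values thus count the 41 probes as independent sources of spread. All of them were read in the same 3 ratios from 2 knockdown cultures, so the intervals can be too narrow. The SD of Arg3h's own 3 ratios was 0.20, the largest of the 4 arginine probes, and ratio 2 was the highest. Without ratio 2 the log2 ratio of Arg3h was 0.32 (limma adjusted p = 0.118), or 0.31 with the dye control subtracted (limma adjusted p = 0.312), and it did not pass. Without ratio 3, the only ratio of knockdown culture 2, it did not pass either, at 0.43 (limma adjusted p = 0.648), or 0.41 after dye subtraction (limma adjusted p = 0.993). When the standards were centred again after the dye control had been subtracted, the value was 0.37 (limma adjusted p = 0.0604). Centred on the median human probe, which removes a shift shared by the whole tRNA pool, Arg3h passed both without dye subtraction, at 0.21 (limma adjusted p = 0.0312), and with it, at 0.31 (limma adjusted p = 0.00103).

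Counted from the top of the 41 human probes, Arg3h had rank 3, 2 and 6 in ratios 1, 2 and 3, and rank 4, 1 and 4 after dye subtraction. Its spots, which are repeats within an array and not independent replicates, were also set beside the median human probe. All 16 spots lay above that median in ratio 1 and all 13 unflagged spots in ratio 3, against 2 of 16 on the dye control. In ratio 2 it was 12 of 16. Arg2h, which passed neither way, also had 12 of 16 in ratio 2, and 16 of 16 in ratio 3. Such counts were made for the arginine probes only. The dye control ratio of Arg3h was 0.015, so subtraction hardly moved it.

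The spots of each arginine probe scattered more widely in ratio 2 than on the other arrays, most of all for Arg3h. The ratio 2 spots of Arg3h ran from -0.90 to 2.59 with an SD of 0.81, against 0.16 to 0.36 (SD 0.052) in ratio 1 and 0.34 to 0.47 (SD 0.045) in ratio 3. For Arg1h, Arg2h and Arg4h the SD was 0.46, 0.13 and 0.26 in ratio 2, against 0.34, 0.055 and 0.058 in ratio 1. Across Arg3h spots, which are not independent replicates, log2 intensities of both channels correlated at r = 0.997 in ratio 1, 0.993 in ratio 3 and 0.322 in ratio 2. The ratio 2 correlations of Arg1h, Arg2h and Arg4h were higher, at r = 0.815, 0.711 and 0.908. The 4 lowest control values of Arg3h in ratio 2 were 83, 198, 216 and 326, at spots whose knockdown values were 1386, 473, 1908 and 1897. A ratio of channel medians, which does not pair the channels spot by spot, gave 0.22, 0.59 and 0.43 for Arg3h in ratios 1, 2 and 3. The medians over paired spots, 0.23, 0.63 and 0.42, were close to these.

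**Figure D1:**
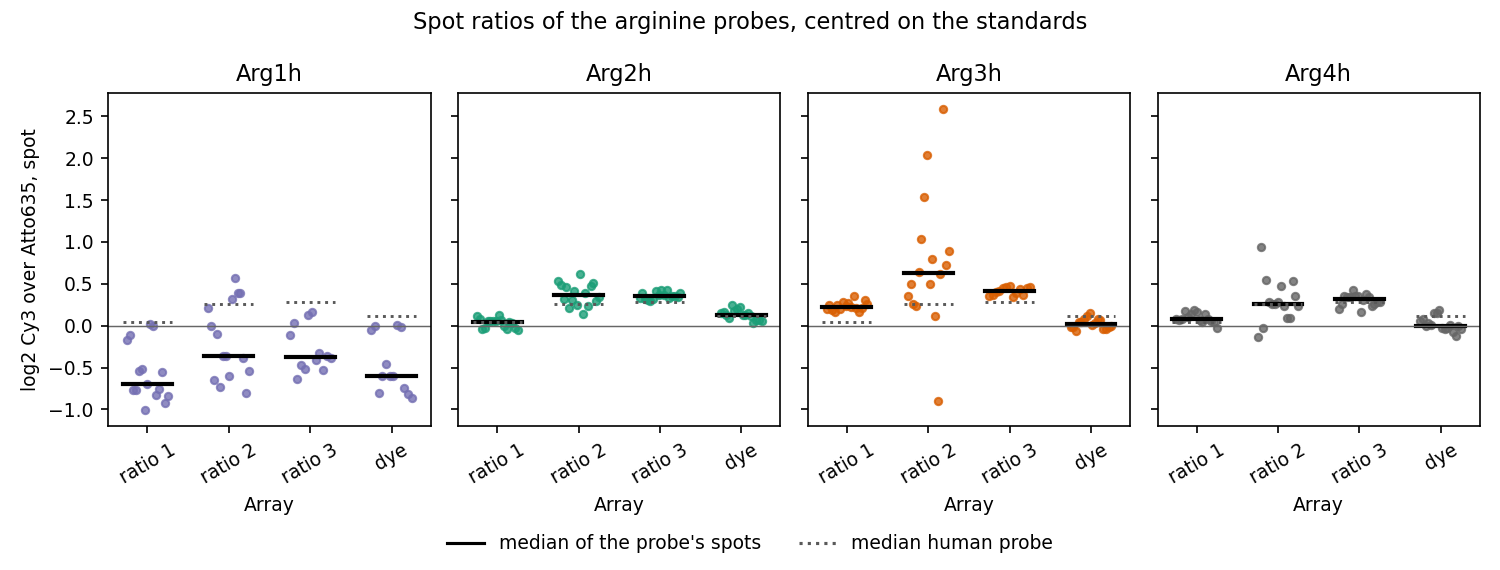
Each point is the log2 ratio of Cy3 (knockdown) over Atto635 (control) of 1 unflagged spot, centred on the standards. Points are shown for each arginine probe in the 3 ratios and on the dye control, and ratio 2 uses the Cy3 values of ratio 1. Black lines mark the probe's median and dotted lines the median human probe. Arg3h lies tightly above the dotted line in ratios 1 and 3, and its spots run from -0.90 to 2.59 in ratio 2.

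Arg1h was the dimmest of the 41 human probes in both channels of all 3 ratios and of the dye control. Its median intensity in the knockdown channel was 100 on array 1 (13 to 432 over 15 unflagged spots) and 137.5 on array 3 (65 to 390 over 12). In the control channel it was 126 in ratio 1 (17 to 246), 68 in ratio 2 (4 to 167) and 60.5 in ratio 3 (29 to 123). Most of these spots were still above their local background by 2 of its SDs in both channels, 14 of 15 in ratio 1 and 12 of 12 in ratio 3. Intensities of different probes depend on the probe as well as on the tRNA, so the low signal alone does not give the amount of this tRNA.

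The log2 ratios of Arg1h were -0.70, -0.36 and -0.37 in ratios 1, 2 and 3, the lowest of all 41 probes in each. The fit gave -0.46 (SE 0.13, 95% interval -0.73 to -0.20, limma adjusted p = 0.0126). On the dye control the same probe was at -0.60, and after its subtraction the 3 values were -0.10, 0.24 and 0.23, with a fitted value of 0.14 (SE 0.13, 95% interval -0.13 to 0.40, limma adjusted p = 0.748). Ratio 1 thus lay below 0 and ratios 2 and 3 above it, and Arg1h did not pass. The authors' deposited table gave linear ratios of 0.846, 1.29 and 1.36 for Arg1h in ratios 1, 2 and 3.

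The lower call of Arg1h moved with the constant of 50 intensity units that was added in background correction, which is of the size of the probe's own signal. With no such offset its log2 ratio was -0.035 (limma adjusted p = 0.879), with 10 units -0.17 (limma adjusted p = 0.374), with 25 units -0.30 (limma adjusted p = 0.112), and with 100 units -0.58 (limma adjusted p = 0.00219). Before centring Arg1h was at 0.011, 1.20 and 1.33 in ratios 1, 2 and 3 with no offset. It was at 0.0079, 0.48 and 0.81 with 50 units, and at 0.0062, 0.34 and 0.61 with 100 units. Ratio 1 thus barely moved, and the fall was in ratios 2 and 3. The standards were at 0.70, 0.83 and 1.19 with 50 units, and at 0.70, 0.83 and 1.18 with 100 units, so they barely moved either. The other 3 probes also fell as the offset grew, but less: Arg3h was at 0.52 with no offset and 0.35 with 100 units. Arg3h lost its call with 100 units (limma adjusted p = 0.107, and 0.159 after dye subtraction) and with 200 units (limma adjusted p = 0.195, and 0.149 after dye subtraction). After dye subtraction it also missed the threshold with 10 units (limma adjusted p = 0.0609) and with no offset (limma adjusted p = 0.0970). After dye subtraction Arg1h ran from 0.26 with no offset to 0.12 with 100 units and did not pass at any of the 6 offsets tried. Without ratio 1, however, dye-subtracted Arg1h passed as higher, at 0.23 (limma adjusted p = 0.00332). It was then 1 of 19 human probes that passed as higher, so this call was not particular to Arg1h. Without ratio 3 the lower call of Arg1h before dye subtraction was lost (-0.53, limma adjusted p = 0.488).

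**Figure D2:**
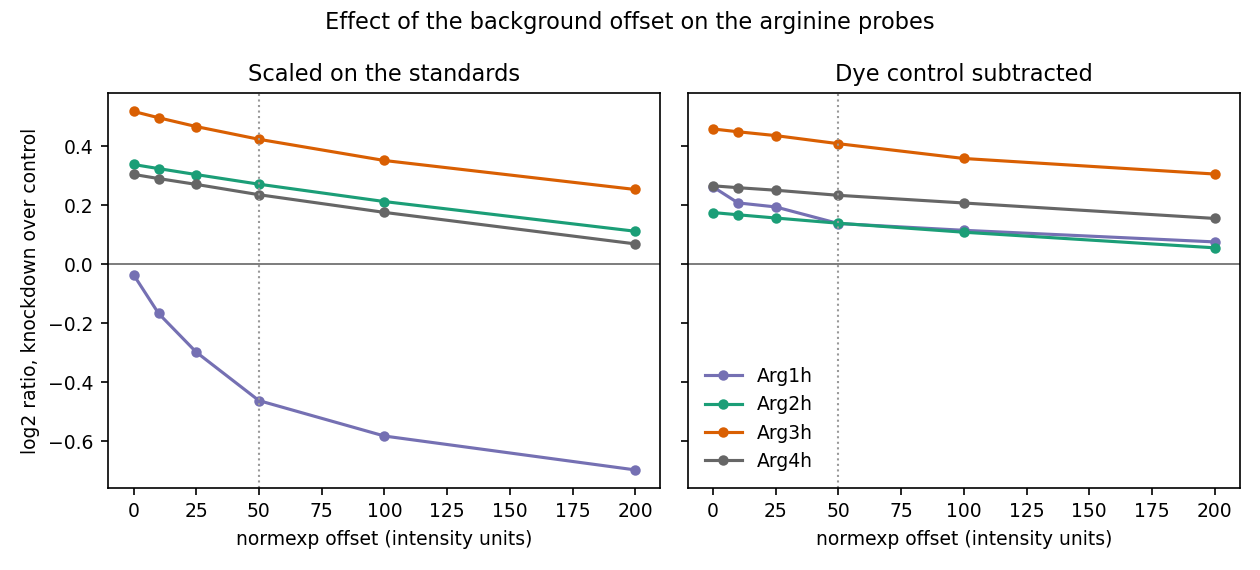
Fitted log2 ratio of knockdown over control of the 4 arginine probes against the offset added in background correction, in intensity units, scaled on the standards (left) and with the dye control subtracted (right). The dotted line marks the offset of 50 used for the main values. Arg1h drops from -0.035 to -0.58 between offsets of 0 and 100 on the left, and the other probes move less.

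The spots of Arg1h differed by place on the array. In blocks 5 and 9 its 4 spots had 305 to 432 units in the knockdown channel and 187 to 246 in the control channel of ratio 1. In the other blocks its 11 unflagged spots had 13 to 133 and 17 to 154 units. The same contrast between blocks was seen on the dye control, with 1070 to 1397 Cy3 units in blocks 5 and 9 and 27 to 175 elsewhere. The log2 ratio of Arg1h in blocks 5 and 9 was -0.061, 0.26 and 0.080 in ratios 1, 2 and 3, against -0.76, -0.38 and -0.44 in the other blocks. With plain background subtraction and no offset it was 0.046, 0.49 and 0.39 in blocks 5 and 9, and -0.86, 0.022 and 0.0088 elsewhere. So the bright spots of this probe gave no lower ratio in ratios 2 and 3 and a value near 0 in ratio 1. This split by block was chosen after the values had been seen and is given without a test.

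**Figure D3:**
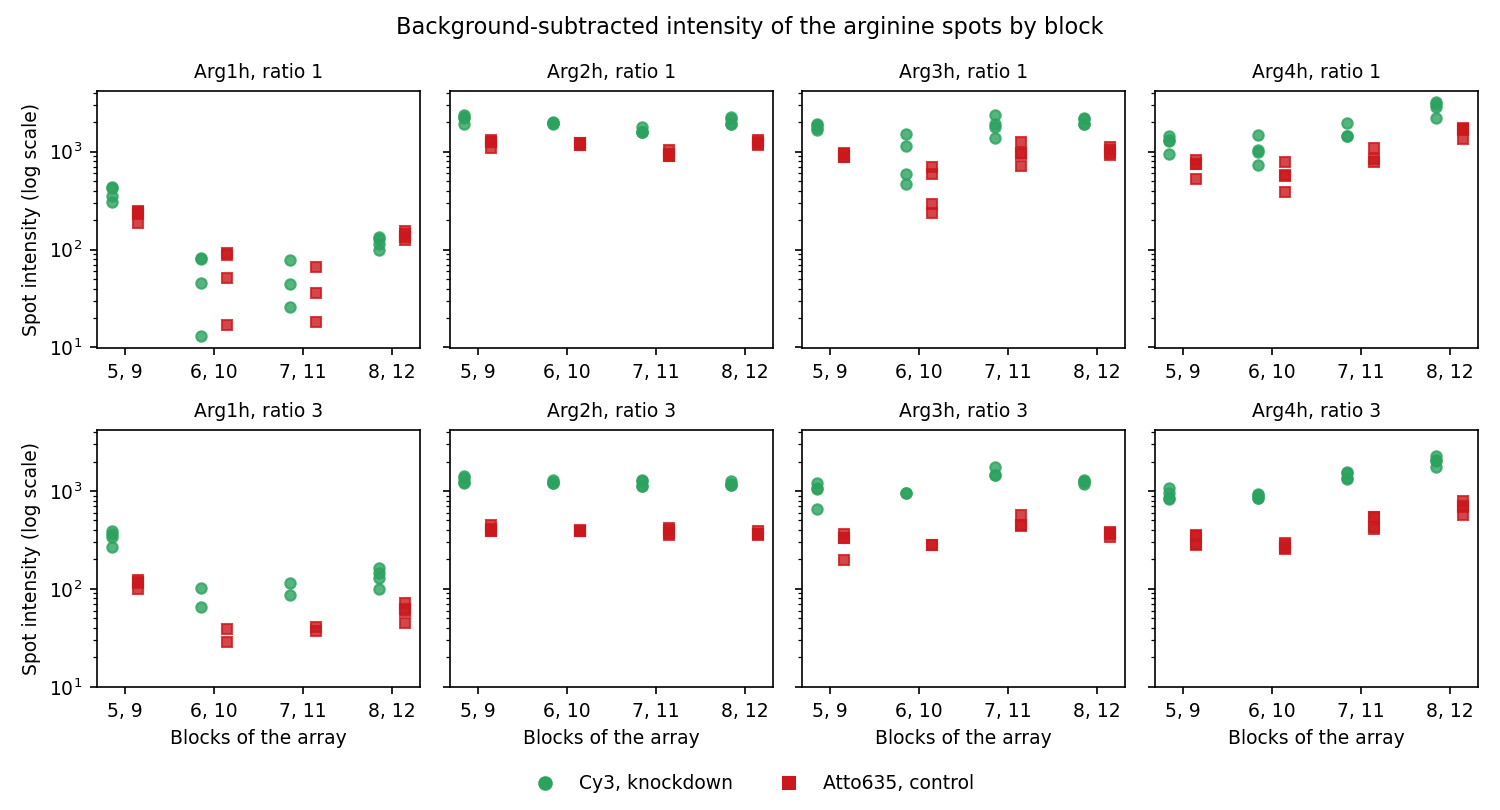
Background-subtracted intensity (log scale) of each unflagged spot of the arginine probes by pair of blocks, with the knockdown channel (Cy3) left of the control channel (Atto635), for ratio 1 (top) and ratio 3 (bottom). Arg1h is brightest in blocks 5 and 9, Arg4h in blocks 8 and 12, and Arg2h is even across blocks.

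Arg2h had the most even spot intensities of the 4 probes, relative to its median. Its spot ratios were not the most even in ratio 1, with an SD of 0.055 against 0.052 for Arg3h. The median intensity of Arg2h in the knockdown channel was 1933.5 on array 1 (1576 to 2363) and 1219.5 on array 3 (1113 to 1439). In the control channel it was 1191.5 in ratio 1 (908 to 1310), 836 in ratio 2 (598 to 996) and 389 in ratio 3 (353 to 452). No spot of Arg2h was flagged on any array. The log2 ratios of Arg2h were 0.048, 0.37 and 0.36, with ratio 1 apart from the other two, and the fit gave 0.27 (SE 0.13, 95% interval 0.0080 to 0.54, limma adjusted p = 0.119). With the dye control subtracted they were -0.084, 0.23 and 0.23, with a fitted value of 0.14 (SE 0.13, 95% interval -0.12 to 0.40, limma adjusted p = 0.748). In ratio 1, 8 of its 16 spots lay above the median human probe, and in ratio 3 all 16 did. Without ratio 1 it passed in both forms, at 0.36 (limma adjusted p = 1.05e-05) and at 0.23 (limma adjusted p = 0.00374), where 31 and 19 of the 41 probes passed as higher.

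Arg4h was the probe with the steadiest ratios, with an SD over the 3 ratios of 0.12. Its median intensity in the knockdown channel was 1449 on array 1 (738 to 3203) and 1213 on array 3 (825 to 2266). In the control channel it was 784 in ratio 1 (390 to 1733), 569 in ratio 2 (363 to 1445) and 384.5 in ratio 3 (257 to 787). Its spots in blocks 8 and 12 were the brightest, with medians of 2997.5 and 2066 in the knockdown channel of arrays 1 and 3, but their log2 ratios, 0.10 and 0.32, were close to those of all its spots. The log2 ratios of Arg4h were 0.084, 0.26 and 0.32, all above 0, and the fit gave 0.24 (SE 0.13, 95% interval -0.028 to 0.50, limma adjusted p = 0.194). Its dye control ratio was 0.0020, and with the dye control subtracted the fitted value was 0.23 (SE 0.13, 95% interval -0.030 to 0.50, limma adjusted p = 0.370). Without ratio 1 it passed too, at 0.29 in both forms (limma adjusted p = 0.000202, and 0.000444 after dye subtraction). It was then among 31 human probes that passed as higher, and among 19 after dye subtraction.

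**Figure D4:**
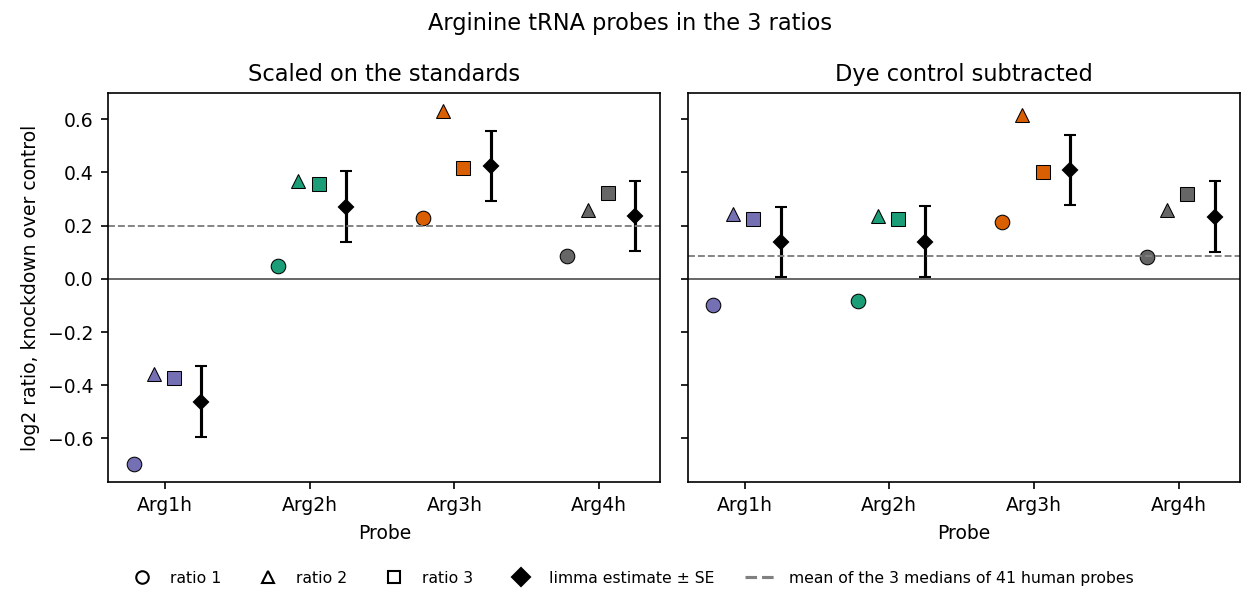
Log2 ratio of knockdown over control of each arginine probe in ratios 1, 2 and 3 (symbols) with the limma estimate ± SE (black diamonds), scaled on the standards (left) and with the dye control subtracted (right). The dashed line is the mean of the 3 medians of the 41 human probes, 0.20 on the left and 0.09 on the right. Arg1h moves from below to above 0 between the panels, and Arg3h stays highest in every ratio.

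Set against all human probes, 1 arginine probe was called higher and 1 lower, where 12.2% of the 41 probes were called, 9.76% as higher and 2.44% as lower. After dye subtraction 1 of the 4 was called higher, where 7.32% of the 41 were called, all of them higher. No probe of the 41 was lower then, with 0 below 0 at an unadjusted limma p under 0.05. Counts over 4 probes can show no more than this. A total of 3 arginine probes lay above 0 in all 3 ratios, against 70.7% of the human probes, and 2, Arg3h and Arg4h, did so after dye subtraction, against 24.4%. Taken over each probe's unweighted mean of the 3 ratios, the median of the 4 arginine probes was 0.24 and that of all 41 was 0.20. With the dye control subtracted the medians were 0.17 and 0.07. In ratios 1, 2 and 3 the arginine median was 0.066, 0.31 and 0.34 before dye subtraction, near the medians over all human probes given above.

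**Figure D5:**
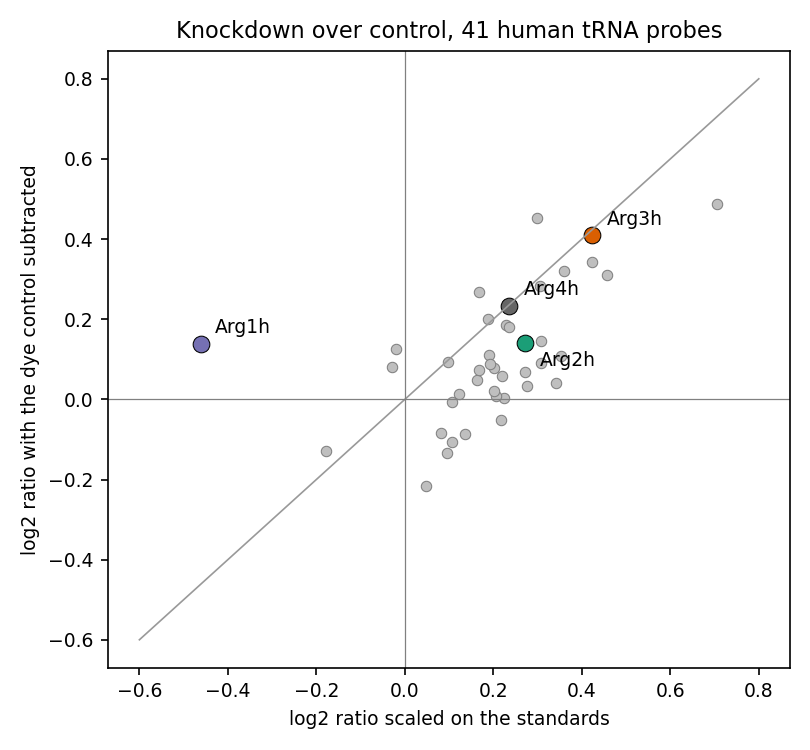
Fitted log2 ratio of knockdown over control of the 41 human tRNA probes, scaled on the standards (horizontal) and with the dye control subtracted (vertical), with the arginine probes coloured and the line of equality in grey. Arg3h lies near the line at 0.42 and 0.41, while Arg1h lies far from it at -0.46 and 0.14.

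Differences between arginine probes within an array do not depend on the standards used for centring. Arg3h exceeded Arg2h by 0.18, 0.26 and 0.060 in ratios 1, 2 and 3, a mean of 0.17 ± 0.10 (SD, n = 3). It exceeded Arg4h by 0.14, 0.37 and 0.096, a mean of 0.20 ± 0.15 (SD, n = 3). After dye subtraction Arg3h was above Arg1h, Arg2h and Arg4h in 3 of 3 ratios, by means of 0.29, 0.28 and 0.19. With no offset it was above Arg2h and Arg4h in 3 of 3 ratios, but above Arg1h in 2 of 3, by 0.62, -0.025 and 0.059 in ratios 1, 2 and 3 (mean 0.22). With the offset of 50, the exact two-sided sign-flip p was 0.25 for each of these, the smallest that 3 ratios allow, and 0.30 after adjustment over the 6 pairs. The sign-flip test takes the 3 ratios as independent, while ratios 1 and 2 share knockdown culture 1 and its Cy3 values, so only 2 knockdown cultures stand behind it.

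Differences from Arg1h depended on the offset. With 50 units Arg2h exceeded Arg1h by 0.74, 0.72 and 0.73 before dye subtraction (mean 0.73 ± 0.010, SD, n = 3, exact two-sided p = 0.25). The dye control alone showed a gap of 0.73 between these probes, and after its subtraction the gap was 0.012, -0.0083 and -0.00036. With no offset Arg2h exceeded Arg1h by 0.77, 0.048 and 0.33 before subtraction (mean 0.38), and the gap was 0.31, -0.41 and -0.13 after it. So the even gap, and its absence after subtraction, were seen with 50 units and not without an offset. The mean gap before subtraction was 0.36 with plain subtraction, 0.30 with spots under 100 left out and 0.10 with loess. Arg4h exceeded Arg1h in 3 of 3 ratios with 50 units, by means of 0.70 before and 0.096 after subtraction. With no offset the difference was 0.83, -0.054 and 0.28 before subtraction (mean 0.35, exact two-sided p = 0.5) and 0.49, -0.39 and -0.061 after it (mean 0.014, exact two-sided p = 1), so the signs were mixed. Arg2h and Arg4h differed by 0.036 ± 0.072 (SD, n = 3, exact two-sided p = 0.75) before subtraction and by -0.095 ± 0.072 (exact p = 0.25) after it, a difference whose direction depended on the dye control.

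The level of each tRNA in single cultures, as the percentage of the median standard in the same channel, overlapped between the groups for Arg3h and Arg2h but not for Arg4h and Arg1h. Arg3h was at 14.6% and 10.3% in knockdown cultures 1 and 2, against 11.5%, 9.08% and 7.69% in control cultures 1, 2 and 3. Arg4h was at 11.6% and 10.4%, against 9.76%, 8.36% and 8.01%, and both knockdown cultures lay above all 3 control cultures, as for 7.32% of the 41 human probes. Arg1h, where the offset makes up much of the value, was at 1.16% and 1.55%, against 2.05%, 1.60% and 2.03%. Its knockdown cultures lay below all 3 control cultures, as for 2.44% of the 41 probes. Arg2h was at 15.3% and 10.5%, against 14.5%, 12.0% and 8.11%. The median human probe was at 25.2% and 18.9% in knockdown cultures and at 22.0%, 19.6% and 13.6% in control cultures. It was thus lowest on array 3 in both channels, as were Arg2h, Arg3h and Arg4h but not Arg1h. Only values of the same probe can be compared in this way. All knockdown levels were read in Cy3 and all control levels in Atto635, and the dye control was not applied. A group difference in these levels therefore cannot be told apart from a dye effect. On the dye control the log2 ratio of Arg1h was -0.60 and that of Arg4h 0.0020.

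Lysine and histidine, the other basic amino acids, were read by 4 lysine probes and 1 histidine probe. The histidine probe His1h was the 1 member that passed, as higher, at 0.71 (SE 0.13, limma adjusted p = 3.64e-05), and at 0.49 after dye subtraction (limma adjusted p = 0.0171). The 4 lysine probes lay at 0.10 to 0.21, below the fitted values of Arg2h, Arg3h and Arg4h, and at 0.0073 to 0.11 after dye subtraction, and none passed (limma adjusted p of 0.228 to 0.526, and of 0.785 to 0.986 after dye subtraction). Differences between lysine and arginine probes were not tested.

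By root-mean-square difference over the 3 uncorrected ratios, the probes most like Arg3h were Val4h, a valine probe, at 0.080 and Leu4h, a leucine probe, at 0.097. Val4h was at 0.18, 0.51 and 0.38 in ratios 1, 2 and 3, with the same order of ratios as Arg3h. Arg2h was closest to Gln1h, a glutamine probe, at 0.0032, and to Thr2h, a threonine probe, at 0.037. Arg4h was closest to the tyrosine probe Tyr2h, at 0.016, and the methionine probe Met1h, at 0.044. Arg1h had no close neighbour, with Leu6h, a leucine probe, at 0.33 and the glutamate probe Glu1h at 0.43. With the dye control subtracted its nearest probe was Arg2h, at 0.0086 with 50 units, but with no offset Arg2h was at 0.31 and had rank 8, and the nearest was Leu4h, at 0.20. These likenesses rest on 3 ratios, 2 of which share the knockdown RNA and its Cy3 measurement, and are given as descriptions.

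The linear ratios of the authors' deposited table had medians of 0.985, 1.11 and 1.14 over 40 human probes in ratios 1, 2 and 3. On the log2 scale the authors' deposited table correlated across these probes, which are not independent replicates, at r = 0.995, 0.976 and 0.998 with dye-subtracted ratios made without an offset, and at 0.638, 0.804 and 0.613 with uncorrected ones. Its direction and its division by the dye control were read from this match, and its centring stays unknown. Arg3h had linear ratios of 1.22, 1.60 and 1.39 in the authors' deposited table, at rank 2, 1 and 4 of 40. In the authors' deposited table Arg4h stood at 1.11, 1.19 and 1.27 and Arg2h at 0.981, 1.17 and 1.21. Taken as log2 values into the same limma fit, the authors' deposited ratios gave 0.48 for Arg3h (SE 0.12, limma adjusted p = 0.00317), 0.27 for Arg4h (limma adjusted p = 0.161), 0.23 for Arg1h (limma adjusted p = 0.270) and 0.18 for Arg2h (limma adjusted p = 0.340). Arg3h was the 1 arginine probe that passed, among 6 that passed in all.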

How the data were processed

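Per the file headers, the authors deposited a scanner table per ratio and one for a dye control array, with the mean and median pixel intensity and local background of 800 spots in 2 channels. The sources used here do not say which RNA each dye control channel held. The authors also deposited a linear ratio per probe. The deposited Flags column marks spots with a number other than 0, and such flagged spots were left out. The mean minus the local background of each channel went through limma's normexp correction with 50 units added (limma 3.58.1, R 4.3.3). A probe's value was the median over its unflagged spots of log2 Cy3 over Atto635, minus the median of the 4 standards. The dye control was processed alike and subtracted in a second set of values. Ratios were fitted with lmFit and eBayes over the 41 human probes, with the knockdown culture as a block and a correlation of 0.5. The dye control is 1 array, so its own error is not in the SEs of dye-subtracted values. The fit was tested on simulated data with independent noise in each probe and effects larger than that of Arg3h. The simulation held no shift shared by an array and no dim probes, so it does not cover these. Ratios 1 and 2 share 1 knockdown RNA, and p-values measure the spread between these samples. Named probes were the arginine, lysine and histidine probes and the 2 most like each arginine probe by root-mean-square difference. The members and lists were chosen with earlier results of these data known. Alternatives covered background, centring, spot summary, flags, dim spots and replicates. The offset series, the probe pairs without an offset, centring again after dye subtraction, and the offset of 0 together with centring on the median human probe were chosen after seeing the data.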

Additional observations from a re-analysis of the deposited data

How the results depend on the processing

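With 3 ratios from 2 knockdown cultures, 1 dye control array and no swapped dyes, a dye effect that differs between arrays cannot be told apart from a knockdown effect. No paired analysis was possible because each ratio already sets both RNAs against each other and the ratios form 1 group. Ratio 2 holds the Cy3 values and flags of ratio 1, so it is not shown to pair both RNAs on 1 array. The signal of Arg1h over background was low on every array, which limits its values. Over 23 alternatives of the uncorrected values and 18 of the dye-subtracted ones, Arg3h stayed above 0 in each, from 0.14 to 1.37 and from 0.31 to 0.51. In the 18 dye-subtracted ones Arg2h (0.044 to 0.23) and Arg4h (0.14 to 0.29) stayed above 0 as well, so this was not particular to Arg3h. The 23 include dye subtraction, the authors' deposited table and no centring, where 40 human probes were called higher. Values are log2 ratios, p-values are limma's adjusted ones, and where no cause is given it was not tested. For the uncorrected values, Arg1h lost its call with foreground means in ratios 1 and 3 (-0.39, limma adjusted p = 0.119), plain subtraction (-0.021), offset 0 (-0.035), loess (-0.13), the mean of spots (-0.31), spots under 100 left out (-0.029), and offset 0 with centring on the median human probe (-0.30). It lay above 0 without centring (0.49, limma adjusted p = 0.0644), after dye subtraction (0.14) and in the authors' deposited table (0.23). Arg3h lost its call with foreground means (0.37, limma adjusted p = 0.123), loess (0.14), the mean of spots (0.48), median pixels in ratios 1 and 3 (0.32), and offset 0 with the median human probe (0.26, limma adjusted p = 0.0708). Arg2h and Arg4h fell below 0 under loess (-0.020 and -0.036). They passed without centring (1.22 and 1.18), with ratios taken as independent (0.26 and 0.22) and with ratios 1 and 2 averaged (0.28 and 0.25). Probes called higher were 1 with foreground means, the mean of spots, median pixels, or offset 0 with the median human probe, 0 with loess, 7 with offset 0, 10 without the standard Yeast Phe-3, 11 without E.c. Lys-2, 20 as independent, 28 averaged and 40 without centring. Probes called lower were 4 with the median human probe and 0 with foreground means, plain subtraction, offset 0, loess, no centring, the dye control, the mean of spots, spots under 100 left out, the authors' deposited table, or offset 0 with the median human probe. The arginine median was 0.042 with the median human probe, 0.056 with offset 0 as well, -0.034 with loess and 1.15 without centring. Arg2h minus Arg4h was -0.0076 with foreground means, -0.095 with the dye control, -0.097 from channel medians, -0.0013 from median pixels and -0.092 in the authors' deposited table, where Arg2h minus Arg1h was -0.030.

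For dye-subtracted values, Arg3h lost its call with plain subtraction (0.46, limma adjusted p = 0.116), offset 0 (0.46, limma adjusted p = 0.0970), without E.c. Ala-5 (0.38) or E.c. Tyr-2 (0.43), with the mean of spots (0.46, limma adjusted p = 0.497), flagged spots kept (0.40), spots under 100 left out (0.41, limma adjusted p = 0.0588) and standards centred again (0.37). Arg1h was -0.012 with spots under 100 left out, and Arg4h passed with ratios 1 and 2 averaged (0.24, limma adjusted p = 0.0191). Probes called higher were 0 with plain subtraction, offset 0, the mean of spots or without E.c. Ala-5, 1 with flagged spots kept, 6 without E.c. Lys-2, 6 in the authors' deposited table, 7 with the median human probe, 8 as independent and 10 averaged. Probes called lower were 5 with the median human probe, and 1 averaged or at offset 0 with the median human probe. Arg2h minus Arg1h was -0.077 with plain subtraction, -0.079 at offset 0 with either centring, -0.060 with flagged spots kept and -0.030 in the authors' deposited table. Leaving out 1 ratio in turn gave -0.54 to -0.37 for Arg1h (0.065 to 0.23 dye-subtracted), 0.20 to 0.36 for Arg2h (0.071 to 0.23), 0.32 to 0.52 for Arg3h (0.31 to 0.51) and 0.17 to 0.29 for Arg4h (0.17 to 0.29). Called probes ranged from 0 to 31 higher and 0 to 2 lower, and from 0 to 19 higher dye-subtracted. Arg2h minus Arg4h ranged from -4.02e-05 to 0.071, and dye-subtracted Arg2h minus Arg1h from -0.0043 to 0.0061.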
